A study of Mus musculus with 2 samples.

Results

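The BCL2 family decides whether the outer membrane of the mitochondrion stays closed, and 10 of its genes were followed here in *Sox9*GFPHi chondrospheres of the mouse. They are a list of gene names, with no threshold on a measured value. The survival genes are *Bcl2*, *Bcl2l1*, *Bcl2l2* and *Mcl1*, and the death genes are *Bax*, *Bak1*, *Bid*, *Bbc3*, *Pmaip1* and *Bcl2l11*. All 10 were among the 23628 genes with a deposited value, and all 10 had a mean level of 1 CPM or more (reads per 1000000 reads), which 12631 genes reached. The data are RNA-sequencing of 2 libraries of 1 condition, called replicate 1 and replicate 2. The cells came from femoral heads of pups at postnatal day 7 carrying the *Sox9* IRES-EGFP allele, from a strain the methods call homozygous, in which the *Sox9* locus itself drives GFP. They were sorted as GFP-high and negative for CD31, Ter119 and CD45, then seeded at low density and grown in methylcellulose under low oxygen, in serum-containing medium with FGF2, BMP4, IGF1, LIF and TGF-β1. Pups were harvested separately as biological replicates according to the methods, although the labels do not tie a library to a pup. No other condition was analysed here, so the comparisons are between genes within a library and between the 2 libraries, without a test between groups.

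Family members are built around short shared stretches called BCL2 homology (BH) domains. BAX and BAK are effectors, which form pores in the outer mitochondrial membrane and release cytochrome c, and the survival proteins hold them back. BID, PUMA (encoded by *Bbc3*), NOXA (*Pmaip1*) and BIM (*Bcl2l11*) share only the BH3 domain with the rest of the family, and use it to occupy the groove of the survival proteins or to activate the effectors. NOXA binds mainly MCL1, whereas BIM and PUMA bind all major survival proteins. In cartilage the family has been studied mostly at the end of the growth plate, where hypertrophic chondrocytes die or change their fate.

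The BH3 coding stretches are shown because BH3 is the domain that links the BH3-only genes to the rest of the family. Each is 27 bases long and was read from a GENCODE M21 transcript of GRCm38, 5′ to 3′ on the strand of the gene. The capitals mark the codons for the glycine, or in *Bbc3* alanine, and for the aspartate that follows it. The pattern searched was a leucine or methionine codon, any 2 codons, a codon for alanine, isoleucine, valine or methionine, then the capitals and a codon for aspartate, glutamate, glycine or lysine. It was written from knowledge of the family. Over all genes, 1.8% of 21901 coding transcripts held it, with the longest of each gene searched. For the 9 genes shown, transcripts were searched from the longest down until 1 held it, and that transcript held it 1 time. These matches are therefore no test of the pattern and are not comparable with the 1.8%. *Pmaip1* was not searched.
Bcl2: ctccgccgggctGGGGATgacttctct
Bcl2l1: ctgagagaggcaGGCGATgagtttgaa
Bcl2l2: atgcgggctgctGGAGACgagtttgag
Mcl1: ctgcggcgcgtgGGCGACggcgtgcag
Bax: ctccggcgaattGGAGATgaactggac
Bak1: cttgctctcatcGGAGATgatattaac
Bid: ctcgcccaaataGGCGATgagatggac
Bbc3: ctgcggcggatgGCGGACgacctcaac
Bcl2l11: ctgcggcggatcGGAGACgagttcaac

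Each of these stretches lies within a single coding exon. Among the survival genes they are at chr1:106712575-106712601 in exon 1 of *Bcl2*, at chr2:152829697-152829723 in exon 2 of *Bcl2l1*, at chr14:54884517-54884543 in exon 3 of *Bcl2l2* and at chr3:95659436-95659462 in exon 1 of *Mcl1*. Among the death genes they are at chr7:45465997-45466023 in exon 3 of *Bax*, at chr17:27022531-27022557 in exon 4 of *Bak1*, at chr6:120897289-120897315 in exon 4 of *Bid*, at chr7:16313773-16313799 in exon 3 of *Bbc3* and at chr2:128147150-128147176 in exon 3 of *Bcl2l11*. *Bbc3* and *Bcl2l11* were the most alike, with 22 of 27 bases identical. *Bcl2* and *Bak1* were among the least alike, with 11 identical bases. The files give 1 value per gene, so the reads that cover these stretches, and splice forms such as the long and short forms of *Bcl2l1* or the forms of *Bcl2l11*, cannot be told apart.

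Values are CPM with the deposited offset of 0.0001 subtracted. Levels of different genes are compared after dividing CPM by the exonic length of the gene in kilobases (kb), because a longer transcript gives more reads. From the step that separates low values, replicate 1 held about 43300000 gene-assigned reads and replicate 2 about 42200000. At this depth 3 reads correspond to 0.0693 and 0.0712 CPM, which covers counting error only. The label of the cells was checked against markers. The 7 chondrocyte markers had a median of 8551 CPM and summed to 186504 CPM in replicate 1 against 129610 in replicate 2, and *Sox9* itself had 252 and 279 CPM. The 4 leukocyte markers summed to at most 0.151 CPM, the 4 endothelial markers to at most 0.231 CPM and the 4 erythroid markers to at most 0.120 CPM, with *Cdh5*, *Kdr* and *Tyrobp* at 0 in both libraries. The libraries stood apart in proliferation, with the 4 markers *Mki67*, *Top2a*, *Ccnb1* and *Cdk1* summing to 23.6 and 132 CPM in replicates 1 and 2. The 4 osteoblast markers summed to 2.62 and 49.4 CPM, of which *Dmp1* gave 40.4 CPM in replicate 2. The 4 hypertrophic markers summed to 6383 and 22681 CPM, mostly *Spp1* at 4620 and 20524 CPM beside *Col10a1* at 1752 and 2109 CPM. The 4 fibroblast markers summed to 2047 and 854 CPM, mostly *Col1a1* at 1166 and 584 CPM and *Dcn* at 879 and 267 CPM. *Pdgfra* had 2.03 and 2.71 CPM, and *Thy1* had 0.208 and 0 CPM.

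*Mcl1*, whose protein is turned over within a short time in most cells, was the highest survival gene per kb of exons. It lies at chr3:95658788-95663176 and was measured at 76.1 and 72.8 CPM in replicates 1 and 2. Per kb of exons this was 22.3 and 21.3 CPM, a mean of 21.8 ± 0.677 (SD, n = 2), so the libraries were close together. *Bcl2l1*, which encodes BCL-xL and lies at chr2:152780668-152831728, was at 27.8 CPM in replicate 1, against 60.1 in replicate 2, or 6.06 and 13.1 CPM per kb. *Bcl2l2*, which encodes BCL-w and lies at chr14:54883377-54888234, had 31.0 and 39.8 CPM, or 6.95 and 8.92 CPM per kb, and shares exons with the read-through gene *Gm20521* at 0.266 and 0.508 CPM. These 2 genes changed places between the libraries. The log2 ratio of *Bcl2l1* to *Bcl2l2* per kb was -0.20 in replicate 1 and 0.55 in replicate 2, and its mean of 0.18 was smaller than its SD of 0.53, so their order was not resolved. Per kb of the longest coding transcript, *Bcl2l1* was higher than *Bcl2l2* in both libraries, and the log2 ratio of *Mcl1* to *Bcl2l1* was 1.04 in replicate 1 and -0.14 in replicate 2.

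*Bcl2*, the founding gene of the family, was the lowest of the survival genes. It lies at chr1:106538178-106714274 and was at 6.40 and 10.4 CPM, from about 277 and 438 reads. Per kb of its 9157 exonic bases this was 0.699 and 1.13 CPM, below the median of 3.67 CPM per kb of the 12436 genes at 1 CPM or more that also had a length. The other 3 survival genes were above that median in both libraries. *Bcl2l1* was 8.66 times *Bcl2* in replicate 1 and 11.6 times in replicate 2. On the log2 scale this ratio per kb was 3.32 ± 0.29 (SD, n = 2).

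**Figure D1:**
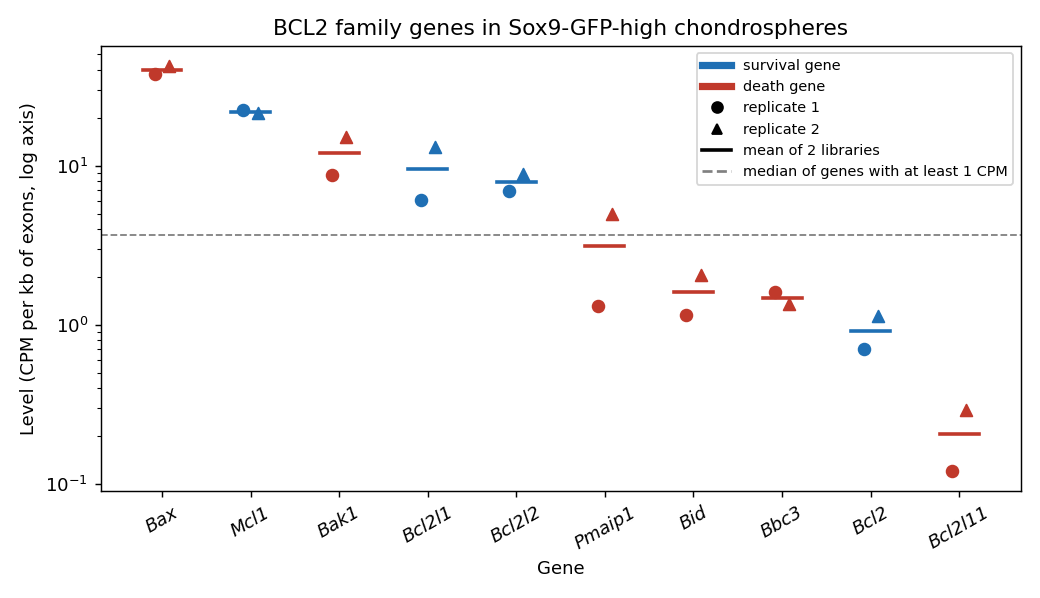
Level of the 10 BCL2 family genes on a log axis, in CPM per kb of exons, with replicate 1 as circles, replicate 2 as triangles, the mean of the 2 libraries as a line, survival genes in blue and death genes in red. *Bax* is highest at 39.9 CPM per kb and *Bcl2l11* lowest at 0.205, and the dashed line is the median of genes with at least 1 CPM (3.67).

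*Bax* was the highest of the 10 genes per kb. It lies at chr7:45461697-45466898 and was at 59.1 CPM in replicate 1, against 66.5 in replicate 2. Over its 1576 exonic bases this was 37.5 and 42.2 CPM per kb, a mean of 39.9 ± 3.30 (SD, n = 2). *Bak1*, the second effector, lies at chr17:27019810-27029009 and had 21.0 and 36.4 CPM, or 8.73 and 15.1 CPM per kb. Both effectors were thus well above the median gene, and *Bax* exceeded *Bak1* by 4.30 times per kb in replicate 1 and 2.79 times in replicate 2. The log2 ratio of 1.79 ± 0.44 (SD, n = 2) was larger than its spread between the libraries. Exons of *Bak1* overlap those of *Ggnbp1* on the opposite strand, which had 6.23 and 3.59 CPM.

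The BH3-only genes and *Bcl2* had the lowest levels per kb of the 10 genes. *Bid*, whose protein is cut by caspase-8 and carries the signal of death receptors to the mitochondrion, lies at chr6:120891930-120916853 and was at 4.07 and 7.30 CPM. Its exons overlap those of *Bcl2l13* on the opposite strand, which had 25.2 and 26.0 CPM. The libraries are stranded, but the sources used here do not state whether strand was used in counting, so the level of *Bid* is uncertain. *Bbc3*, a p53 target, lies at chr7:16308393-16318205 and had 3.40 and 2.87 CPM. *Pmaip1*, another p53 target, lies at chr18:66458533-66465565 and had 3.60 and 13.5 CPM. *Bcl2l11* lies at chr2:128126038-128162547 and had 0.970 and 2.33 CPM, from about 42 and 98 reads.

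Per kb of exons, the levels of *Bid* were 1.15 and 2.05 CPM, those of *Bbc3* 1.60 and 1.35, those of *Pmaip1* 1.32 and 4.96, and those of *Bcl2l11* 0.121 and 0.290. *Bcl2l11* was the lowest of the 10 genes in both libraries. *Bid*, *Bbc3* and *Pmaip1* had different orders in the 2 libraries. *Pmaip1* stood below *Bbc3* in replicate 1 and above it in replicate 2, with a mean log2 ratio of 0.80 and an SD of 1.52. *Bid* to *Bbc3* had a mean log2 ratio of 0.061 and an SD of 0.77. No order among these 3 genes held beyond the spread of the libraries. In replicate 2, *Pmaip1* was the only BH3-only gene of the 4 above the median of 3.67 CPM per kb.

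Summed by class, the death genes stood above the survival genes per kb in both libraries. In replicate 1 the 4 survival genes summed to 36.0 CPM per kb and the 6 death genes to 50.4. In replicate 2 the sums were 44.5 and 66.0 CPM per kb. The log2 ratio of survival to death was -0.49 in replicate 1 and -0.57 in replicate 2, a mean of -0.53 ± 0.058 (SD, n = 2), and such a ratio is untouched by the scaling of its library. The spread between the libraries was small, but the direction rested on length and on single genes. Before dividing by length, the survival genes summed to 141 and 183 CPM and the death genes to 92.2 and 129 CPM, a mean log2 ratio of 0.56 in the opposite direction. *Bax* alone made up 74.4% of the death sum per kb in replicate 1 and 64.0% in replicate 2. With *Bax* left out the log2 ratio was 1.19, and with *Bax* and *Mcl1* both left out it was 0.024. The ratio of the median genes of each class was 1.90 on the log2 scale. No direction held across these settings.

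**Figure D2:**
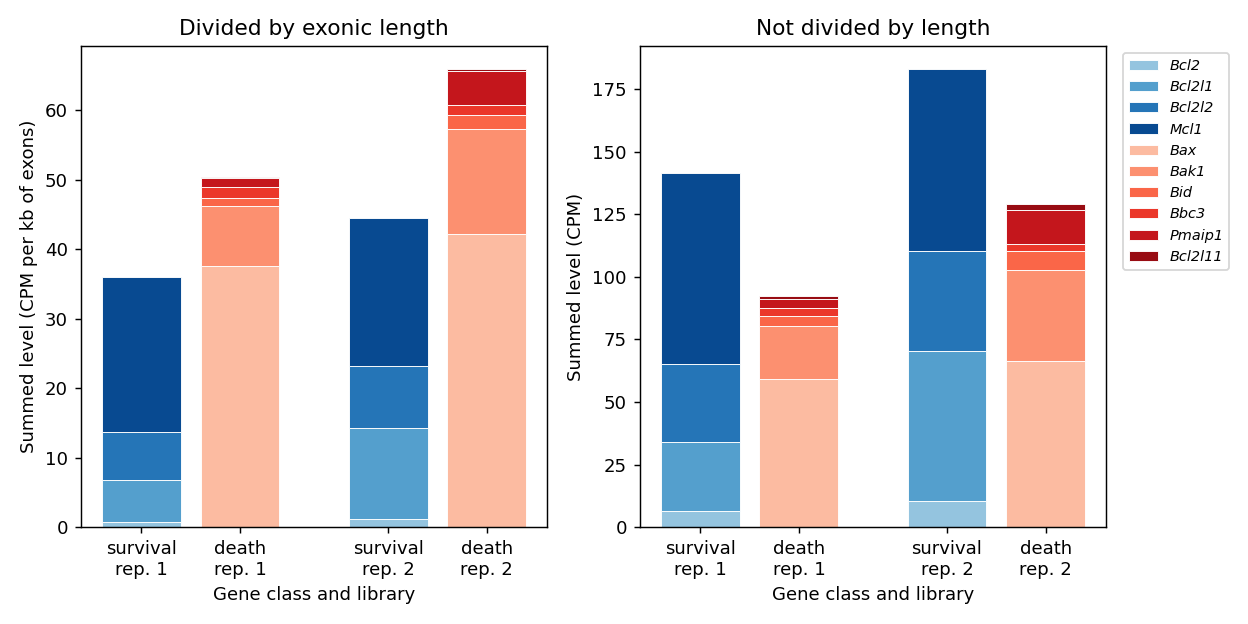
Summed level of the 4 survival genes (blue) and the 6 death genes (red) in each library, stacked by gene, in CPM per kb of exons on the left and in CPM on the right. Death sums are higher on the left (50.4 against 36.0 in replicate 1) and lower on the right (92.2 against 141), and *Bax* and *Mcl1* make up the largest pieces on the left.

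The 6 death genes fell into very unequal groups. The effectors *Bax* and *Bak1* summed to 46.3 CPM per kb in replicate 1 and 57.3 in replicate 2. The 4 BH3-only genes summed to 4.18 and 8.65 CPM per kb. The effectors were 1.29 times the survival sum per kb in both libraries, and before dividing by length they were 0.567 and 0.562 times the survival sum. The survival sum was 8.60 and 5.14 times the BH3-only sum per kb in replicates 1 and 2, with a mean log2 ratio of 2.73 ± 0.53 (SD, n = 2). This direction also held per kb of the longest coding transcript, at 8.03 and 5.47 times, and with no division by length, at 11.7 and 7.03 times. The size of the ratio depends on the list, since the BH3-only sum holds these 4 genes only. *Bad*, a further BH3-only gene outside the main list, had 7.65 and 7.35 CPM per kb in replicates 1 and 2. *Mcl1* made up 61.9% of the survival sum per kb in replicate 1 and 47.9% in replicate 2, and *Bcl2l1* accounted for most of the difference between the 2 survival sums.

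Each survival gene was then set against each death gene, which gives 24 pairs per library. Per kb, the survival gene was higher in both libraries in 14 pairs and the death gene in 10, and no pair changed direction. All 4 survival genes were below *Bax*. *Mcl1* came closest, with a log2 ratio of -0.75 in replicate 1 and -0.99 in replicate 2. *Mcl1* was also the only survival gene above *Bak1*, with log2 ratios of 1.35 and 0.49, although *Bcl2l1* too was above *Bak1* per kb of the longest coding transcript. All 4 were above *Bcl2l11*, with *Bcl2l1* over it by 50.1 and 45.2 times. *Bcl2l1*, *Bcl2l2* and *Mcl1* were above all 4 BH3-only genes, whereas *Bcl2* was above *Bcl2l11* only. *Mcl1* exceeded *Pmaip1*, whose product NOXA binds mainly MCL1, by 16.9 times in replicate 1 and by 4.30 times in replicate 2. This log2 ratio of 3.09 had an SD of 1.40, the widest spread of the 24 pairs. Before dividing by length, the survival gene was higher in both libraries in 19 pairs, the death gene in 4, and 1 pair, *Bcl2* and *Pmaip1*, was mixed.

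**Figure D3:**
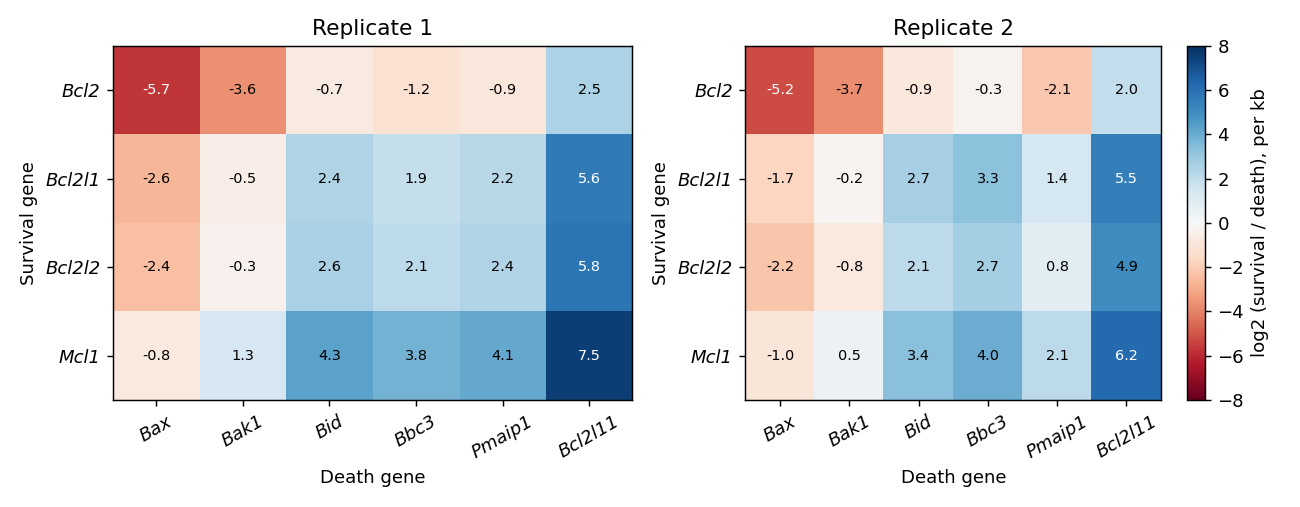
Log2 ratio of each survival gene (rows) to each death gene (columns) per kb of exons in replicate 1 (left) and replicate 2 (right), where blue marks a higher survival gene and red a higher death gene. The *Bax* column is red for all 4 survival genes and the *Bcl2l11* column blue for all 4, while *Bcl2* is red against the other 5 death genes.

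Between the libraries, most family genes were higher in replicate 2, as were 74.3% of all genes tested. Log2 ratios of replicate 2 to replicate 1 were computed on CPM + 0.1, a scale that understates the change of low genes. Over the 12631 genes tested their median was 0.30 and their SD 0.83. *Pmaip1* had the largest ratio of the family, 1.88 on the log2 scale or 3.68-fold. Its counting error was 0.13, which leaves out other variation between libraries. *Bcl2l11* followed at 1.18 with a counting error of 0.27, and *Bcl2l1* at 1.11 with a counting error of 0.051. These 3 of 10 genes were past 2-fold, all higher in replicate 2. Of all genes tested, 15.1% were past 2-fold in either direction and 11.4% were past it as higher in replicate 2, 1435 of 1903. With libraries scaled by a trimmed mean instead, the split over all genes was 973 higher of 1705. Once the median of all genes was subtracted, *Pmaip1* was the only family gene still past 2-fold, at 1.58, beside 13.5% of all genes in either direction and 7.43% as higher.

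The other ratios stayed under 2-fold. *Bid* had 0.83, *Bak1* 0.79, *Bcl2* 0.69 and *Bcl2l2* 0.36 on the log2 scale, all above the median of all genes. *Bax* at 0.17, *Mcl1* at -0.063 and *Bbc3* at -0.24 were below it. The most abundant death gene and the most abundant survival gene were thus among the 3 that fell below the median ratio. After subtraction of the all-gene median, the median log2 ratio was 0.22 for the 4 survival genes and 0.50 for the 6 death genes, or 0.48 with *Pmaip1* left out. The survival genes ranged from -0.37 to 0.81 and the death genes from -0.54 to 1.58, so the classes overlapped. The 4 proliferation markers had a median of 2.10 on the same scale. Whether proliferation, or the other markers that differed between the libraries, had a part in these ratios was not tested. In bulk RNA, more cells that express a gene and more RNA per cell cannot be told apart.

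**Figure D4:**
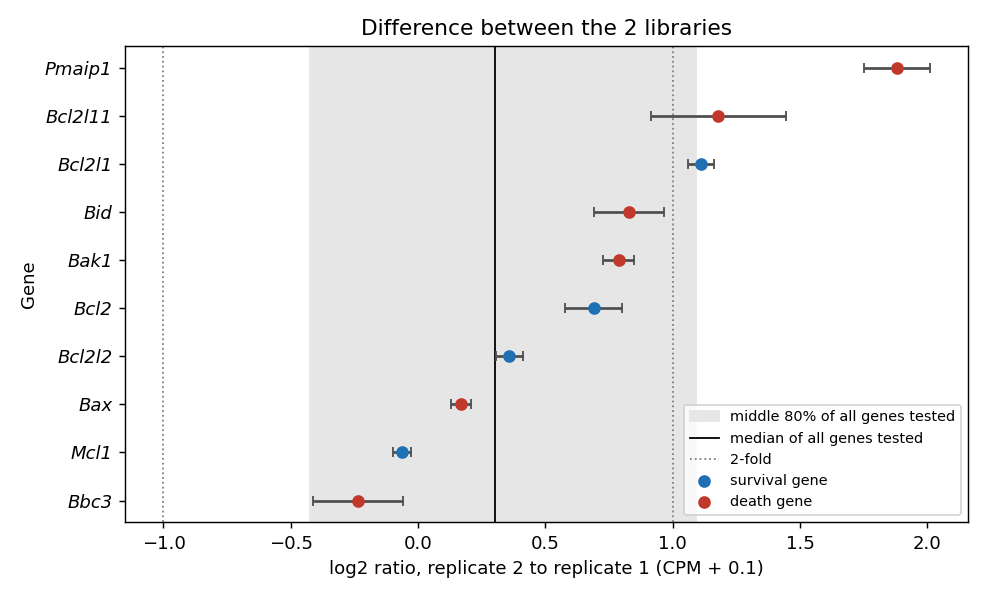
Log2 ratio of replicate 2 to replicate 1 for the 10 genes, on CPM + 0.1, with bars of 1 counting standard error, the median of all genes tested (0.30) as a line and their middle 80% as a grey band. *Pmaip1* lies outside the band at 1.88, *Bcl2l11* and *Bcl2l1* lie just past its upper edge, and *Bax*, *Mcl1* and *Bbc3* to the left of the line.

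Promoter sequence was read for 9 of the 10 genes, without *Pmaip1*, as 14 RefSeq windows on GRCm38.p6. In the 250 bases before each start, 6 motifs were searched on both strands. The GC box GGGCGG was in 10 of the 14 windows, from 7 genes with *Bak1* and *Bcl2l1* as the exceptions, and in 32.7% of 32851 windows of the table. Those 10 windows had 54.0% to 81.6% GC, above the median of 52.4% over all windows, and windows of the same gene are not independent. Whether GC content had a part in the GC boxes was not tested. The TATA box TATAAA, in 12.4% of all windows, the cAMP response element TGACGTCA, in 1.5%, and the STAT site TTCNNNGAA, in 7.0%, were in no window of the 9 genes. The E-box CACGTG was in 2 of the 14 windows, of *Bax* and *Bbc3*, and in 6.0% of all. The FoxO site GTAAACA was in 2 of the 14, of *Bbc3* and *Bcl2l11*, and in 3.2% of all. The last 2 windows are shown because both genes are known FoxO targets that encode BH3-only proteins, *Bcl2l11* from chr2:128125788-128126037 and *Bbc3* from chr7:16310011-16310260, both on the plus strand, with the FoxO site and the GC boxes in capitals.
Bcl2l11: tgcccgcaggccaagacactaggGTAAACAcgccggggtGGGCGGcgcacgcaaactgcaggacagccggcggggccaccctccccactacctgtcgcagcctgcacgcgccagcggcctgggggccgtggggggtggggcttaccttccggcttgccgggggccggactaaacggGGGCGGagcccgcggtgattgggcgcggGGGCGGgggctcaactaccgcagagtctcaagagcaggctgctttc
Bbc3: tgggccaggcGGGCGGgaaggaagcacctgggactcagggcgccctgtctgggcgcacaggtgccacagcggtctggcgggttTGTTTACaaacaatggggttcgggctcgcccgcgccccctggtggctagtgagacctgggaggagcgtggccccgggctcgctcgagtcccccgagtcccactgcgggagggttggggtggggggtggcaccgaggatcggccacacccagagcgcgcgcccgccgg

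The genes for factors known to induce BH3-only genes were measured beside them. *Foxo1* had 172 and 146 CPM in replicates 1 and 2, and *Foxo3* had 34.3 and 42.8 CPM. *Trp53*, which encodes p53, had 30.7 and 43.7 CPM, and the stress factors *Atf4* and *Ddit3*, which encodes CHOP, had 431 and 406 CPM and 58.0 and 48.9 CPM. None of these 5 differed by 2-fold between the libraries. *E2f1*, which drives entry into S phase, was higher in replicate 2 with 12.0 and 28.6 CPM, and *Jun* was lower with 62.1 and 20.1 CPM. Of 7 further p53 targets, 6 lay above the median ratio of all genes, with a median of 0.40 over it, but only *Perp* was past 2-fold, with 0.370 and 3.16 CPM. *Cdkn1a* had 133 and 217 CPM and *Mdm2* had 122 and 158 CPM. The p53 targets of the family did not move alike, since *Pmaip1* was 3.68-fold higher in replicate 2 and *Bbc3* and *Bax* had ratios of 0.850 and 1.12.

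Other relatives of the family added little to the survival side. *Bcl2a1a*, *Bcl2a1b* and *Bcl2a1d*, near-identical copies best known from blood cells, were listed at 0 in both libraries. *Bok*, a further effector, had 0.116 CPM in replicate 1, from about 5 reads, and 2.11 CPM in replicate 2. *Bad*, a BH3-only gene whose protein is silenced by growth factor kinases, had 19.6 and 18.8 CPM, or 7.65 and 7.35 CPM per kb. It was thus above all 4 BH3-only genes of the main list in both libraries. *Bmf* had 4.53 and 5.50 CPM, and *Hrk* was listed at 0. With these genes added, 7 survival genes and 10 death genes gave a log2 ratio of survival to death of -0.74 ± 0.035 (SD, n = 2) per kb and 0.26 without division by length. The non-canonical relatives *Bnip3* and *Bnip3l*, which serve the removal of mitochondria and are induced by low oxygen, had 39.0 and 35.0 CPM and 28.7 and 34.0 CPM.

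Downstream of the mitochondrion, the 6 genes of the apoptosome and its caspases were low, with a median of 1.49 CPM per kb against 3.67 for all genes tested. *Apaf1*, the scaffold of the apoptosome, had 10.4 and 17.6 CPM, and *Casp9* had 6.98 and 7.92 CPM. The 4 genes for proteins released from mitochondria, *Diablo*, *Htra2*, *Aifm1* and *Endog*, had a higher median of 6.53 CPM per kb, and none was past 2-fold. Among the 5 inhibitors of apoptosis, *Birc6* had 69.0 and 104 CPM, and *Xiap*, which blocks caspases directly, had 22.7 and 38.4 CPM. Per kb of exons, *Birc2*, *Birc6* and *Xiap* were close, with means of 3.78, 3.36 and 3.23 CPM. *Birc3* and *Birc5* were past 2-fold, and *Birc5*, which also serves in mitosis, had 1.64 and 6.40 CPM beside the 23.6 and 132 CPM of the proliferation markers, whose part was not tested.

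Over the death receptor pathway, *Tnfrsf1a* was the highest of 8 genes per kb of exons at 33.5 and 38.9 CPM. *Fas* was lower in replicate 2, at 4.67 CPM against 14.5 CPM, and *Fadd*, the adaptor that joins the receptors to caspase-8, was higher with 3.49 and 7.43 CPM. *Casp8*, whose product cuts BID, had 8.38 and 14.6 CPM, and its inhibitor *Cflar* had 18.7 and 31.1 CPM. Per kb of exons the order was the reverse, with *Casp8* at 2.90 and 5.04 CPM and *Cflar* at 1.47 and 2.45. Of the 60 pathway genes at 1 CPM or more outside the main list, 7 were past 2-fold as higher and 2 as lower in replicate 2. Over all genes tested, the shares past 2-fold were 11.4% as higher and 15.1% in either direction. The median ratio of the 60 pathway genes was -0.031 relative to the median of all genes.

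**Figure D5:**
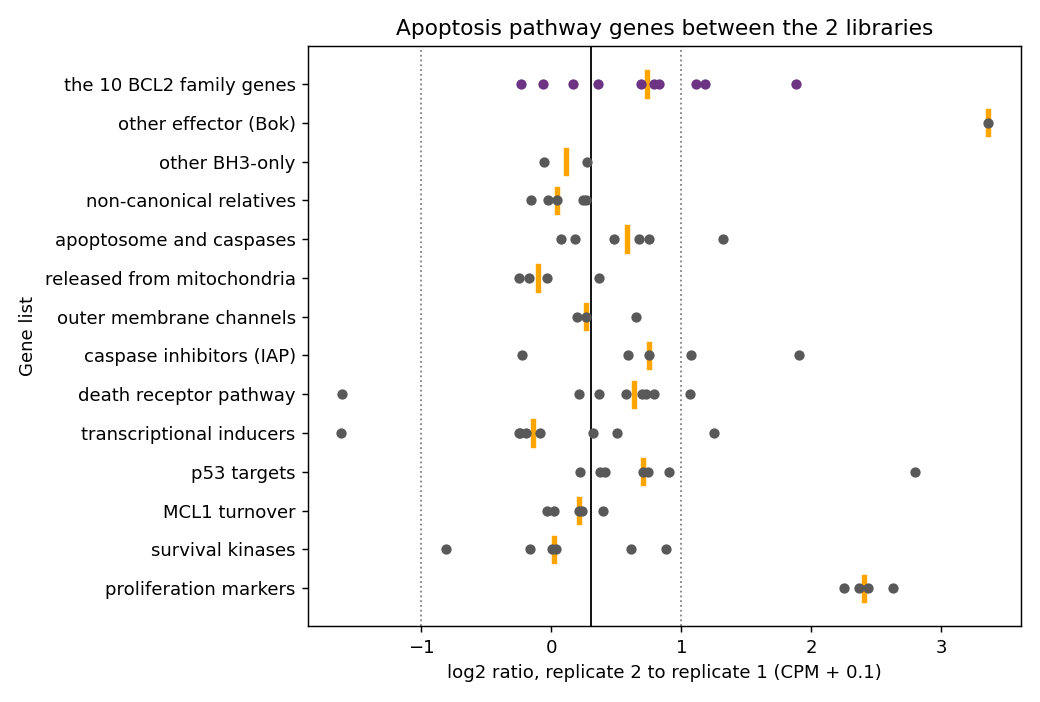
Log2 ratio of replicate 2 to replicate 1 on CPM + 0.1 for each gene (points) of the family and of 12 pathway lists and for proliferation markers, with the median of each list in orange, the median of all genes tested (0.30) as a line and 2-fold as dotted lines. The proliferation markers all lie past 2-fold, and *Pmaip1* is the point farthest to the right among the 10 family genes.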

How the data were processed

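Stranded libraries of poly(A)-selected RNA were sequenced as single reads. The submitters' processing notes and the methods name STAR 2.7.3a, GRCm38 and Partek Flow 10.0.21.0801. The authors assigned reads to GENCODE M25 genes by Partek E/M, which can divide a read among genes, and deposited CPM values with 0.0001 added to each. This offset was subtracted here. Whole multiples of 1 read, within 0.05 reads, made up 66.9% (replicate 1) and 65.6% (replicate 2) of values under 1 CPM, so no count model was fitted. Read numbers given for a gene are CPM divided by the value of 1 read and are approximate.

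CPM were divided by the union of exons in GENCODE M21, in which 22965 of 23628 names (97.2%) matched 1 gene. Log2 ratios between libraries used a pseudocount of 0.1 CPM. With 2 libraries of 1 condition, no p-value was computed, and the SD is between libraries. The members and gene lists were chosen with earlier results of these data known. All 10 members are named, and other genes come from fixed lists of the pathway and of cell type markers. The fold threshold was tested under trimmed-mean scaling on simulated data with counting error only. Other spread between libraries was not simulated, so that test gives no rate of false calls for these libraries. Alternatives covered length, summary, scaling, pseudocount, the filter on low values and each library left out. Python 3.11.15, numpy 2.4.6, pandas 2.3.3, biopython 1.88 and matplotlib 3.10.9 were used.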

Additional observations from a re-analysis of the deposited data

How the results depend on the processing

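For 28 results, 138 values were recomputed with 1 choice changed. Of the 48 values for summaries of the family, 6 moved by more than the spread (the SD between libraries, the counting error, or a factor of 1.5 for a count) and 6 changed direction. Of the 90 values for single genes, 25 moved by more than it. The others give no count of stability, since many could not move: those leaving out 1 of 2 libraries, ratios of single genes under another filter, and differences from the all-gene median under another scaling. The log2 ratio of summed survival to death genes per kb, -0.53, became -0.65 per kb of the longest coding transcript and -1.70 with *Mcl1* left out. It changed direction to 0.56 with no division by length, 1.90 for the median gene of each class, 1.01 for the mean of log2 levels, 1.19 with *Bax* left out and, in a setting chosen after seeing the data, 0.024 with *Mcl1* and *Bax* both left out. With further relatives added, -0.74 became -0.90 per kb of the longest coding transcript, -1.39 with the non-canonical genes counted as death genes and 0.26 with no division by length. The 3 genes past 2-fold between the libraries became 1 with trimmed-mean scaling of the libraries and 1 after subtracting the median of all genes, the latter chosen after seeing the data. The share of all genes past 2-fold, 15.1%, was 8.63% among genes with at least 10 CPM and 21.5% among all genes above 0. Beyond what each setting leaves out or divides by, the cause was not tested. Levels rest on 2 libraries, and low reads limit the ratios of *Bok*, *Perp* and, within the family, *Bcl2l11* most.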

Other observations

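Genes that act on the BCL2 family proteins after translation covered a wide range of levels. Among 5 genes of MCL1 turnover, the median was 6.57 CPM per kb of exons, beside 5.54 for the 10 family genes. *Usp9x*, which removes ubiquitin from MCL1, had 11.4 CPM per kb in replicate 1, against 14.9 in replicate 2, and *Huwe1*, a ubiquitin ligase of MCL1, had 9.32 and 10.8. The ligase genes *Fbxw7*, with 2.21 and 2.60 CPM per kb, and *Btrc*, with 1.10 and 1.11, were lower. None of the 5 was past 2-fold between the libraries. Of the 6 genes for AKT and PIM kinases, which phosphorylate BAD, *Akt1* was highest at 30.9 and 47.2 CPM per kb, and *Pim2* was lowest at 1.37 and 0.765. The channels of the outer mitochondrial membrane had a median of 15.9 CPM per kb, with *Vdac1* at 33.7 and 40.5 and *Vdac2*, which binds BAK, at 12.4 and 19.5.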
